A study of Rattus norvegicus with 6 samples.

Results

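The nuclear genes for the machinery of oxidative phosphorylation were followed in cultured rat neuronal progenitor cells given the stress hormone corticosterone. Member genes were those whose probe set had a single platform symbol starting with Nduf, Sdha to Sdhd, Uqcr, Cyc1, Cox4i, Cox5, Cox6, Cox7, Cox8 or Atp5. The rule found 91 genes on 102 probe sets, of 14217 genes on 20826 probe sets with 1 symbol. Of the 91 genes, 77 encode subunits of complexes I to V, with 35 in complex I, 4 in complex II, 8 in complex III, 15 in complex IV and 15 in complex V. The prefixes also caught 10 assembly factors, which build a complex but are not part of it, and 4 other genes. These are the ATP synthase inhibitor Atp5if1, the supercomplex factor Cox7a2l, the Ndufa4 paralogue Ndufa4l2 and the pseudogene Cox6c-ps1. A further 7 probe sets carried a member symbol together with another symbol and were not analysed here. Ndufa4 was counted by its name in complex I, although the protein sits in complex IV.

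Corticosterone samples were cells given 1 µM corticosterone, the main glucocorticoid of rodents, for 48 h. Vehicle samples received only the solvent dimethyl sulfoxide (DMSO) for the same time. Both came from cerebral cortices of E15.5 rat embryos and grew on fibronectin with 20 ng/ml of the mitogen bFGF. There were 3 arrays per group, in 3 couples of a corticosterone and a vehicle sample, and the labels name neither strain nor sex.

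Oxidative phosphorylation makes ATP at the inner mitochondrial membrane. Complexes I and II pass electrons from NADH and succinate to ubiquinone, complex III passes them to cytochrome c, and complex IV to oxygen. Complexes I, III and IV pump protons, and complex V, the ATP synthase, lets them back to make ATP. A small set of core subunits is encoded by mitochondrial DNA and is not part of the prefix rule, so the values below concern the nuclear subunits only. Neural progenitors are known for leaning on glycolysis more than neurons do, and glucocorticoids are known to act on energy metabolism in many tissues.

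The values are Affymetrix MAS5 signals, scaled so that every array has the same trimmed mean, 500.2. A signal is therefore a level relative to its array, and a change in total RNA per cell would not show. Median signals were 124, 134 and 125 on the corticosterone arrays and 108, 122 and 119 on the vehicle arrays. Progenitor markers Sox2, Vim and Fabp7 had mean signals of 8833, 27455 and 22155 on the corticosterone arrays and 8699, 25055 and 22147 on the vehicle arrays. Marker counts are to be read beside the shares of all 9910 genes tested, of which 11.7% were higher and 7.77% lower with corticosterone. Of the 10 progenitor markers tested, 2 were higher with corticosterone, Nes (limma adjusted p = 0.019) and Slc1a3 (0.00054). Slc1a3 had mean signals of 18561 with corticosterone and 13306 with vehicle. Prom1 had a log2 difference of −0.31 and did not pass. The summed signal of the 10 was 80007 to 88690, against 67725 to 83477 with vehicle. Astrocyte markers were higher for 2 of 3 tested, S100b and Gja1, with summed signals of 9434 to 13907 with corticosterone and 4972 to 7878 with vehicle. Most of that sum is Gja1, with mean signals of 10939 and 5668. Mesenchymal, meningeal or pericyte markers were higher for 3 of 5 tested, Col1a2, Acta2 and Fn1, with sums of 1743 to 5815 with corticosterone and 919 to 2952 with vehicle. The largest part of these sums is Fn1, with mean signals of 2317 and 833, and the collagens Col1a1 and Col3a1 did not pass. Of the neuron markers 1 of 8 was lower, and of the oligodendrocyte lineage markers 1 of 4 was lower. Of the microglial, endothelial and muscle markers only Aif1 and Des were bright enough to be tested, with limma adjusted p-values of 0.74 and 0.60, and the sum of each of these lists was at most 258 with corticosterone and 207 with vehicle. In bulk samples, fewer cells of a type and less RNA per cell cannot be told apart, and the part that any of these cell types has in the values below was not tested.

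On the signals as deposited, the nuclear subunits of the 5 complexes changed little. Each probe set was fitted with limma, with couple as a term, and a gene passed at a Benjamini-Hochberg adjusted p under 0.05 over all 18625 probe sets tested. Of the 77 subunit genes, 73 had enough signal to be tested. Of these, 0 rose, 2 fell and 71 did not pass, which is 2.74% called. Both that fell are in complex I, Ndufab1 and Ndufs4. Among all 9910 genes tested, 19.5% passed, 11.7% higher and 7.77% lower (15.9% of all probe sets). Brighter probe sets are measured more precisely, and 68 of the tested subunits had a mean signal of 1000 or more. Of those 68, 2 passed, or 2.94%, against 22.1% of the 3767 genes with such a signal. The subunits are still brighter than those genes, with a median signal of 5864 against 2040. At a mean signal of 5000 or more the medians are close, 7707 for 44 subunits and 7566 for all 603 genes. There 1 subunit passed, or 2.27%, against 16.6% of the genes. At an unadjusted p under 0.05 there were 2 subunits higher and 6 lower, beside 35.3% of all genes.

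The count moves with the settings, and so does the share of all genes called. Centring each array on its median gave 13 subunits, all lower, beside 26.6% of all genes. Without the filter on low signals 3 genes of the prefix rule passed, all lower, none of them subunits, beside 8.71% of all genes. Without the intensity trend 1 gene of the rule passed, beside 8.06%, and with the mean of each gene's probe sets 1 subunit did, beside 18.2%. Leaving out couple 1, 2 or 3 gave 0, 1 and 0 subunits, beside 11.3%, 8.16% and 18.5% of all genes.

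A gene that does not pass is not thereby shown to be constant, so the intervals were read as well. The median size of the subunits' difference, on the log2(signal + 28.6) scale and without its sign, was 0.060, against 0.15 over all genes and 0.12 over the genes with a signal of 1000 or more. The 95% interval of the difference lay wholly within a 1.25-fold change either way, 0.32 on the log2 scale, for 70 of the 73 subunits. That is 95.9% of them, against 35.4% of all genes and 60.9% of those with a signal of 1000 or more. At a signal of 5000 or more the intervals of all 44 subunits lay within that bound, against 80.6% of the 603 genes, and the median size was 0.060 against 0.094. The 3 exceptions were Ndufs4 and Ndufb8 of complex I and Cox7a1 of complex IV. These interval counts are from the main fit and were not repeated for other settings, and the bound was chosen after the data were seen. After centring each array on its median, the subunit median was −0.13 and Ndufab1 had −0.30. Without the couple term, the limma standard error of Ndufab1 was 0.10 in place of 0.057. Corticosterone and vehicle signals did not overlap for 5 of the 73 subunits, against 26.2% of all genes. These were Ndufc2, Ndufs7, Sdha and Uqcrc1, higher in each corticosterone array, and Ndufb10, lower in each. In all 3 couples, 13 subunits had a higher signal with corticosterone and 13 a lower one, beside 54.8% of all genes with 1 direction in all couples.

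**Figure D1:**
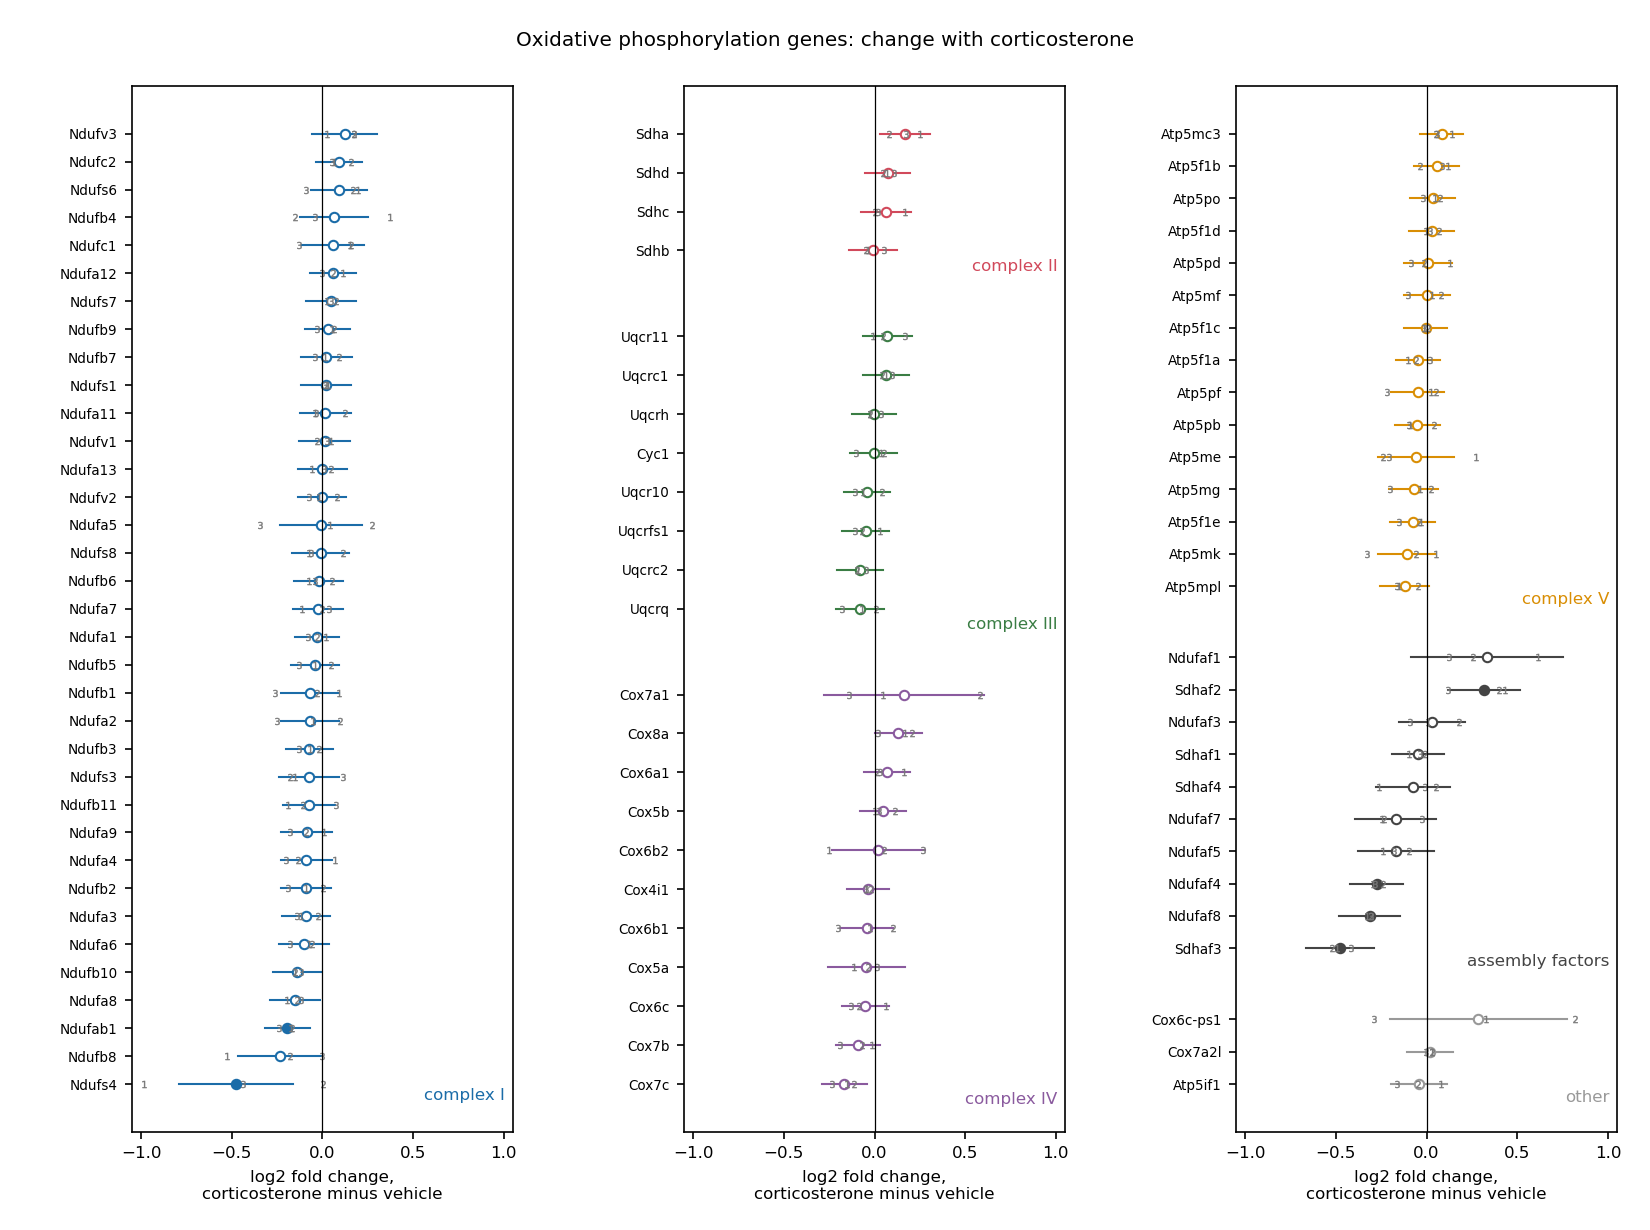
Log2 difference, corticosterone minus vehicle, for each of the 86 tested genes of the prefix rule, in panels for complex I, complexes II to IV, and complex V with the assembly factors and other genes. Circles are limma estimates, bars 95% intervals, small digits the differences within couples 1, 2 and 3, and filled circles passed at an adjusted p under 0.05; nearly all subunits lie close to 0 with short bars, and the assembly factors spread more widely.

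**Figure D2:**
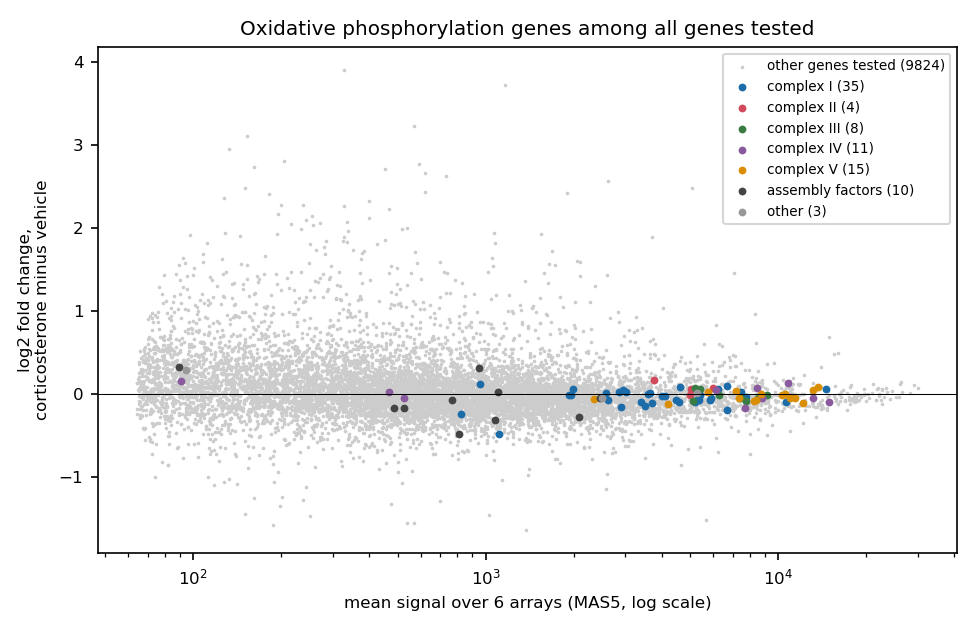
Log2 difference, corticosterone minus vehicle, against mean signal (log axis) for all 9910 genes tested, with the genes of the prefix rule marked. Subunits of complexes I to V, the assembly factors and the other genes of the rule have a colour each; the subunits lie between −0.47 and 0.17, most of them at signals above 1000, where the differences of other genes are narrower too.

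Complex I, NADH dehydrogenase, held both subunits that fell. Ndufab1 is the mitochondrial acyl carrier protein, which is part of complex I and also serves fatty acid and lipoate synthesis. Its signals were 5733, 6197 and 6747 in corticosterone samples 1, 2 and 3, against 6459, 6964 and 7979 in the vehicle samples. The groups overlap, but the signal was lower in each couple, with a log2 difference of −0.19 ± 0.057 (limma SE, n = 3 couples) and a limma adjusted p of 0.040. Here and below, SE is the moderated standard error of the limma fit. It draws on the spread of probe sets of similar signal, and is not the spread of a gene's 3 couple differences. Ndufs4 is an accessory subunit of the electron input arm, known in humans and mice for the encephalopathy that its loss causes. It had 899, 974 and 852 with corticosterone and 1809, 974 and 1163 with vehicle. The difference of −0.47 ± 0.14 (limma adjusted p = 0.045) averages couple differences of −0.99, 0.001 and −0.44. The vehicle sample of couple 1 stood highest. The 3′ to 5′ ratio of control probe sets is a sign of RNA quality. For Gapdh it was lowest on the corticosterone array of couple 1 and next lowest on the vehicle array of couple 1. Only for Actb did the vehicle array of couple 1 have the lowest ratio. That ratio was 1.76 to 2.03 on the corticosterone arrays and 1.55, 2.11 and 2.12 on the vehicle arrays, and its part in the result was not tested. Without couple 1 it was −0.22, with a limma adjusted p of 0.32, and without couple 3 the adjusted p was 0.099. Ndufs4 also missed the threshold after quantile normalization (limma adjusted p = 0.051) and in the fit that averaged the probe sets of every gene (0.056). Ndufab1 had limma adjusted p-values of 0.068, 0.16 and 0.16 without couple 1, 2 or 3.

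The other 33 complex I genes did not pass. The 6 core subunits measured belong to the peripheral arm, which takes up NADH and leads its electrons to ubiquinone, and had differences between −0.073 and 0.049. Ndufs1 had 3076, 2940 and 2621 with corticosterone and 3013, 2895 and 2594 with vehicle, a difference of 0.022 ± 0.063 (SE). Ndufv1, which binds NADH, had 0.013, Ndufv2 −0.0042, Ndufs7 0.049, Ndufs8 −0.0088 and Ndufs3 −0.073. The median of these 6 was 0.0042, and that of the 29 accessory subunits −0.041. The largest positive difference was that of Ndufv3, an accessory subunit, at 0.12 ± 0.082. Ndufb8, of the membrane arm, had −0.24 ± 0.11 with a limma adjusted p of 0.16, and its vehicle signal of couple 1, 1159, stood above the 764 and 783 of the other couples. Its corticosterone signals were 796, 672 and 781. Ndufb10 had 3326, 3335 and 3338 with corticosterone and 3698, 3699 and 3625 with vehicle. These groups do not overlap, and the difference of −0.14 ± 0.061 did not pass (limma adjusted p = 0.15).

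Complex II, succinate dehydrogenase, has 4 nuclear subunits and is also an enzyme of the TCA cycle. None of the 4 passed, and 3 of them were higher with corticosterone in all 3 couples. Sdha, the flavoprotein, had 3839, 4035 and 4083 with corticosterone and 3225, 3812 and 3613 with vehicle, with no overlap. Its difference was 0.17 ± 0.064 (SE), and the limma adjusted p was 0.098, or 0.046 after quantile normalization. The membrane anchors Sdhc and Sdhd had 0.064 ± 0.062 and 0.073 ± 0.057. A dimmer probe set of Sdhd gave 0.19 ± 0.066 with a limma adjusted p of 0.079. The iron-sulfur subunit Sdhb had 5246, 4773 and 4871 with corticosterone and 5369, 4932 and 4694 with vehicle, a difference of −0.0091 ± 0.059.

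Complex III, the cytochrome bc1 complex, had 8 tested subunits, and their differences lay between −0.079 and 0.070. Uqcrc1, a core protein, had 5439, 5555 and 5545 with corticosterone and 5213, 5407 and 5186 with vehicle. The groups do not overlap, yet the difference is small, 0.065 ± 0.058 (SE, limma adjusted p = 0.50). Cytochrome c1 (Cyc1) had −0.0051 ± 0.060 and the Rieske protein Uqcrfs1 −0.049 ± 0.058. The ends of the range were Uqcrq at −0.079 and Uqcr11 at 0.070, both small structural subunits. For the core protein Uqcrc2 the brighter probe set gave −0.079 ± 0.058 and a dimmer one −0.20 ± 0.13. On that dimmer probe set, couple 1 stood apart in both groups, with 2193 against 1376 and 1177 with corticosterone and 3616 against 1342 and 1110 with vehicle.

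Complex IV, cytochrome c oxidase, has subunits with tissue forms. Of its 15 genes, 11 were tested and none passed. The ubiquitous form Cox4i1 had 10558, 10812 and 11114 with corticosterone and 10889, 10941 and 11489 with vehicle, a difference of −0.036 ± 0.053 (SE). Its counterpart Cox4i2, known as a lung form, had 30.4, 60.1 and 88.1 with corticosterone and 10.6, 4.82 and 69.1 with vehicle. It was too dim to be tested, like Cox7b2 and the muscle forms Cox6a2 and Cox8b. Cox6a2 and Cox8b did not exceed the background signal of 22.8 on any of the 6 arrays. The common forms Cox6a1 and Cox8a had 0.070 ± 0.058 and 0.13 ± 0.059, the second with a limma adjusted p of 0.16. Cox7a1, a form of heart and muscle, stayed between 95.7 and 98.1 with corticosterone and between 56.0 and 109 with vehicle, a difference of 0.16 ± 0.20 (SE) with a 95% interval of −0.28 to 0.60. Cox6b1 had −0.042 ± 0.066 and Cox6b2, a testis form, 0.022 ± 0.12.

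The largest negative value of complex IV was that of the small subunit Cox7c. It had 7859, 6436 and 7426 with corticosterone and 8720, 6972 and 8729 with vehicle. It was lower in each couple, by −0.17 ± 0.057, with a limma adjusted p of 0.074 (0.0092 after centring every array on its median). Cox5a and Cox5b, nuclear-encoded structural subunits, had −0.045 ± 0.096 and 0.048 ± 0.058.

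Complex V, the ATP synthase, had 15 tested genes and none passed. The catalytic subunit beta (Atp5f1b) had 12377, 13657 and 14075 with corticosterone and 11400, 14024 and 13262 with vehicle, a difference of 0.055 ± 0.056 (SE). Subunit alpha (Atp5f1a) had −0.047 ± 0.055, and the central shaft subunit gamma (Atp5f1c) −0.0061 ± 0.053. Atp5mc3, a gene for the membrane ring, had the largest positive value, 0.083 ± 0.054, and the small membrane subunit Atp5mpl the largest negative one, −0.12 ± 0.061. The 5 genes of the F1 head had a median of −0.0061, and the 10 of the membrane part and stalk one of −0.050. The inhibitor Atp5if1, which binds the F1 head, had −0.042 ± 0.071. The supercomplex factor Cox7a2l had 0.017 ± 0.058.

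Between complexes, the medians of the log2 differences were −0.026 for complex I, 0.068 for complex II, −0.023 for complex III, −0.036 for complex IV and −0.047 for complex V. The median of all genes tested was −0.0021, and that of the 603 genes with a signal of 5000 or more was −0.041. Within couples 1, 2 and 3 the complex II median was 0.12, 0.024 and 0.079. That of complex I was −0.039, 0.0034 and −0.075, and that of complex V was 0.023, 0.0062 and −0.098. Complex II lay above complex I, III, IV and V in each of the 3 couples. The mean distance was 0.097 ± 0.084 to complex III (SD over couples, n = 3), 0.089 ± 0.069 to complex IV and 0.096 ± 0.079 to complex V. The distance of complex I to complex II was −0.11 ± 0.078. In couple 2 the distances to complex II were all at most 0.021 in size, and complex II rests on 4 genes. These medians are a description, with no test.

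The medians of complexes I, III, IV and V were lowest in couple 3. In it, 47 of the 73 subunits had a lower signal with corticosterone, against 38 in couple 1 and 32 in couple 2. The accessory subunits of complex I had a median of −0.12 in couple 3 and the membrane and stalk genes of complex V one of −0.13. The 6 core subunits of complex I had 0.019 there, and the F1 head of complex V also 0.019. Without couple 3 the median over all subunits was 0.0029, without couple 1 it was −0.019 and without couple 2 it was −0.037. The sign of the subunit median also depends on the scaling. It was −0.021 on the signals as deposited and 0.012 after quantile normalization. After centring each array on its median it was −0.13, where the median of all probe sets shifted to −0.11.

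**Figure D3:**
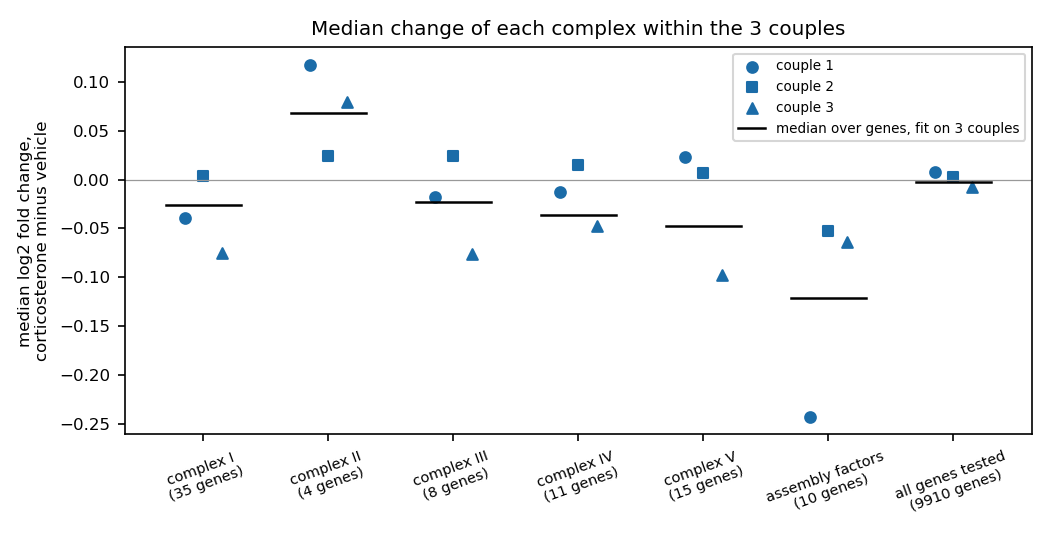
Median log2 difference, corticosterone minus vehicle, of each complex, the assembly factors and all genes tested, within couples 1, 2 and 3 (points) and in the limma fit (bar). Complex II is above 0 in each couple, and complexes I, III, IV and V are lowest in couple 3.

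Assembly factors, caught by the same prefixes, held all 4 of the other calls. Of the 10, 1 rose and 3 fell, which is 40% called beside the 19.5% of all genes. Sdhaf3, a factor for the iron-sulfur subunit of complex II, had 848, 462 and 709 with corticosterone and 1208, 675 and 956 with vehicle. The groups overlap because the couples differ in level, and within each couple the signal was lower. Its difference of −0.48 ± 0.085 (SE) had a limma adjusted p of 0.0031, and it passed with any 1 couple left out (0.0092 to 0.036). Ndufaf4, a complex I assembly factor, had 1939, 1858 and 1833 with corticosterone and 2391, 2204 and 2242 with vehicle, with no overlap. It fell by 0.28 on the log2 scale, with a limma adjusted p of 0.017. Ndufaf8, which assists in complex I assembly as well, had 1032, 867 and 975 with corticosterone and 1304, 1079 and 1213 with vehicle, again with no overlap. It fell by 0.31 on the log2 scale, with a limma adjusted p of 0.018.

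Sdhaf2, needed to attach the flavin to Sdha, was the only gene of the prefix rule that rose. It had 941, 1149 and 1069 with corticosterone and 691, 864 and 982 with vehicle, higher in each couple although the groups overlap. The difference was 0.32 ± 0.090 (SE, limma adjusted p = 0.035), beside the 0.17 of Sdha itself, which did not pass. With 1 couple left out, limma adjusted p-values were 0.055 to 0.087 for Ndufaf4. For Ndufaf8 they were 0.09 without couple 1 and 0.10 without couple 2, and for Sdhaf2 0.19 without couple 1 and 0.22 without couple 2. The remaining 6 did not pass. Ndufaf1 had 116, 105 and 87.4 with corticosterone and 65.8, 83.0 and 77.8 with vehicle, a difference of 0.33 ± 0.19 at signals close to the limit for testing. Over all genes of the rule, 6 of 86 passed, or 6.98%. None of these 6 passed in a fit without the couple term, where their limma adjusted p-values were 0.16 to 0.40 and 3% of all genes passed.

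**Figure D4:**
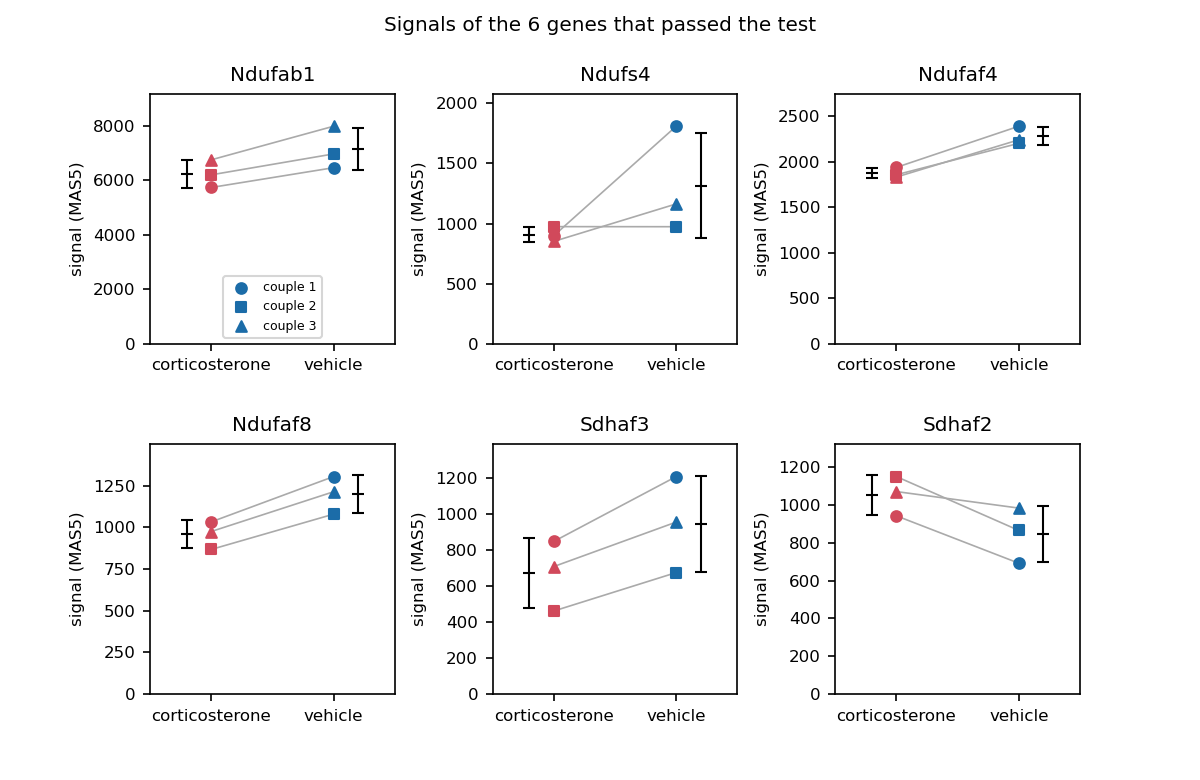
MAS5 signal on each array for the 6 genes of the prefix rule that passed, with corticosterone left of vehicle lines joining the samples of a couple, and bars giving mean ± SD. Sdhaf3, Ndufaf4, Ndufaf8 and Ndufab1 slope the same way in each couple, Sdhaf2 the opposite way, and Ndufs4 is level in couple 2.

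Promoters of the 5 genes that fell are shown because they can be read for sites of the factors known to drive respiratory genes. Each line is the 250 bases upstream of the RefSeq start, build GRCr8, written 5′ to 3′ in the direction of the gene. The positions are chr1:186089337-186089586 on the minus strand for Ndufab1, chr2:47794915-47795164 on the minus strand for Ndufs4, chr5:43401545-43401794 on the plus strand for Ndufaf4, chr10:105879658-105879907 on the plus strand for Ndufaf8 and chr4:36066713-36066962 on the plus strand for Sdhaf3. Capitals mark matches on either strand to GCGCA and GCGC with 1 base between, a form of the NRF1 site, or to CCGGAAG, a form of the ETS site that the GABP factor binds.
Ndufab1: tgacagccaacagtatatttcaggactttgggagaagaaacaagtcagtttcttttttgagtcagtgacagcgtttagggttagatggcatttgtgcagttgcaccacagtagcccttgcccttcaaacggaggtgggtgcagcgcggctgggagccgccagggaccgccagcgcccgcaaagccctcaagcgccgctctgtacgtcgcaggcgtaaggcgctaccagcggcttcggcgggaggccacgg
Ndufs4: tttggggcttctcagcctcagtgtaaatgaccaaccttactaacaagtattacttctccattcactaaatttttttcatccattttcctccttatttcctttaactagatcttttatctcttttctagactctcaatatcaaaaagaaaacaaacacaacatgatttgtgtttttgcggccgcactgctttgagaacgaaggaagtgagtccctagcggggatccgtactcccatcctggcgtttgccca
Ndufaf4: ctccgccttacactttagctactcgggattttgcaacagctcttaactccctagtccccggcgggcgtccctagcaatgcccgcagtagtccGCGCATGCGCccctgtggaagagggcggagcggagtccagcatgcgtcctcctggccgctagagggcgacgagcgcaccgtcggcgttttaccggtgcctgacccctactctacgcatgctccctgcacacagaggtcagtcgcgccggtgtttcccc
Ndufaf8: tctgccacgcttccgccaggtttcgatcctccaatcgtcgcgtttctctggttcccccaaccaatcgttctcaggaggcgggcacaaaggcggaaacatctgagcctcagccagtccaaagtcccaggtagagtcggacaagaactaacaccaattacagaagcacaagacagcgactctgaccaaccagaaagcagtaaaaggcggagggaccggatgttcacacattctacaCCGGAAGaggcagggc
Sdhaf3: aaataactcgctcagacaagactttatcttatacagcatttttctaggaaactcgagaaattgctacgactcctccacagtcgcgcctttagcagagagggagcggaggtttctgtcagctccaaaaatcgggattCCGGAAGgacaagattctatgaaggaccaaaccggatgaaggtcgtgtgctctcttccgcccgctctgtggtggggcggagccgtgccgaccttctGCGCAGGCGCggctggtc

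In these windows Sdhaf3 holds both an NRF1 and an ETS match, Ndufaf4 an NRF1 match and Ndufaf8 an ETS match, while Ndufab1 and Ndufs4 hold neither. Such matches were not limited to the genes that fell. Of the 10 assembly factor promoters, 3 held the NRF1 letters and 5 the ETS letters. Sdhaf2, which rose, had an ETS match, as did Ndufaf1 and Sdhaf1, which did not pass. Ndufaf5, which did not pass either, had an NRF1 match. RefSeq promoters matched 82 of the 91 genes, among them 69 subunit genes. The NRF1 letters were in 10 of the 69, or 14.5%, against 7.66% of the promoters of genes with a single symbol on the array and 4.17% of all 27457. The ETS letters were in 19 of the 69, or 27.5%, against 12.9% and 7.74%. AAGATGGC, a form of the YY1 site, was in 2.9%, against 1.89% and 1.69%. TCAAGGTCA, a form of the site of oestrogen-related receptors, was in 1.45%, against 0.188% and 0.368%. The palindromic glucocorticoid response element, AGAACA and TGTTCT with 3 bases between, matched 0 of the 69 windows and 1 of all 27457. Its left arm AGAACA alone was in 7.25%, against 11.5% and 17.1%. All were searched on both strands, the arm also matches within the full element, and a match in this window is only a match of letters.

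Genes around the respiratory chain were taken as 4 lists of related genes. The median size of their log2 differences, without sign, was 0.26 for biogenesis regulators, 0.13 for carriers and transporters, 0.11 for assembly factors and 0.091 for TCA cycle genes. The subunits had 0.060 and all genes 0.15. In the same order the median signals of the lists were 631, 1338, 821 and 2624. Those of the subunits and of all genes were 5391 and 671. Dimmer probe sets are measured less precisely, and the part of signal in these sizes was not tested. The regulators of mitochondrial biogenesis, which act on nuclear respiratory genes or on mitochondrial DNA, had 23 genes tested, of which 1 rose and 6 fell. That is 30.4% called beside 19.5% of all genes, with a median log2 difference of −0.16 beside −0.0021. Polg, the catalytic subunit of the mitochondrial DNA polymerase, had 1250, 961 and 1194 with corticosterone and 1944, 1356 and 1794 with vehicle, a difference of −0.56 ± 0.074 (SE, limma adjusted p = 0.00053). The groups do not overlap. Pprc1, a coactivator of the PGC-1 family, had 870, 643 and 783 with corticosterone and 1168, 998 and 1056 with vehicle, a difference of −0.48 (limma adjusted p = 0.0031). Tfam, which packages and transcribes mitochondrial DNA, had 1774, 1463 and 1811 with corticosterone and 2602, 2054 and 1958 with vehicle, −0.38 (limma adjusted p = 0.014).

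The nuclear receptor Esrra fell by 0.51 and the mitochondrial transcription factor Tfb2m by 0.44 on the log2 scale, with no overlap between the groups for either. The sixth gene, Gabpb1, a subunit of the GABP factor, fell by 0.34 and is named here after its value was seen. Ppargc1a, the coactivator PGC-1alpha, rose, with 362, 456 and 350 with corticosterone and 229, 402 and 202 with vehicle (0.50 ± 0.13 SE, limma adjusted p = 0.026). Polg and Pprc1 passed with any 1 couple left out. Without couple 1 the limma adjusted p-values were 0.065 for Esrra, 0.09 for Tfam, 0.20 for Tfb2m and 0.10 for Ppargc1a, and Gabpb1 did not pass either. That left 2 of the 23 regulators, beside 11.3% of all genes, so the higher share called was not kept there. Without couple 2 there were 5 of the 23, beside 8.16%, and without couple 3 there were 6, beside 18.5%. Without couple 2 it was 0.14 for Tfam, and Gabpb1 did not pass. Without couple 3 it was 0.081 for Tfb2m and 0.11 for Ppargc1a.

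Electron carriers and mitochondrial transporters had 21 genes tested, of which 4 rose and 1 fell. At 23.8%, their share called is close to that of all genes. Ucp2, a carrier of the uncoupling protein family, had 149, 211 and 191 with corticosterone and 33.6, 78.3 and 93.3 with vehicle, a difference of 1.18 ± 0.18 (SE, limma adjusted p = 0.0015). Gpd2, the mitochondrial glycerol-3-phosphate dehydrogenase that feeds electrons to ubiquinone, had 609, 947 and 696 with corticosterone and 244, 607 and 465 with vehicle, 0.80 (limma adjusted p = 0.0019). In both genes the groups do not overlap. The dicarboxylate carrier Slc25a10 rose by 0.54 and the proton-driven transhydrogenase Nnt by 0.27 on the log2 scale. Ckmt1, a mitochondrial creatine kinase, fell by 0.61 and had a limma adjusted p of 0.099 without couple 1. Nnt had 0.15, 0.061 and 0.068 without couple 1, 2 or 3.

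TCA cycle and pyruvate dehydrogenase genes had 24 tested, of which 4 rose and 0 fell (16.7% called, beside 19.5% of all genes; limma's unadjusted p was under 0.05 for those 4 and for 0 genes with a lower signal). Pdk2, a kinase that inhibits pyruvate dehydrogenase, had 408, 850 and 648 with corticosterone and 262, 468 and 387 with vehicle, a difference of 0.71 ± 0.10 (SE, limma adjusted p = 0.00088). The groups overlap, and each couple was higher with corticosterone. Pdk4, of the same kinase family, was too dim to be tested in the main fit and is named here after its value was seen. It had 81.8, 99.1 and 87.2 with corticosterone and 22.2, 45.2 and 27.9 with vehicle, a difference of 0.98 ± 0.21 (SE). In the fit without the filter on low signals it passed. Idh2, the mitochondrial NADP-linked isocitrate dehydrogenase, had 9770, 9075 and 9127 with corticosterone and 7545, 7906 and 7582 with vehicle, 0.28 (limma adjusted p = 0.008). Pyruvate carboxylase (Pc) rose by 0.40 and Ogdh, of the 2-oxoglutarate dehydrogenase complex, by 0.30. Limma adjusted p-values without couple 1 and without couple 2 were 0.12 and 0.30 for Pc, and 0.17 and 0.06 for Ogdh.

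The wider list of assembly factors, which includes the 10 genes above, had 43 tested, of which 2 rose and 3 fell. That is 11.6% called, below the 19.5% of all genes, while the 10 caught by the prefixes had 40%. Beside Sdhaf2, the gene that rose was Atpaf2, a factor for the F1 head of complex V. It had 647, 615 and 503 with corticosterone and 458, 512 and 414 with vehicle, a difference of 0.33 ± 0.099 (SE, limma adjusted p = 0.044). It did not pass with any 1 couple left out, when the adjusted p was 0.068 to 0.26. The 33 factors that the prefixes did not catch thus held 1 of the 5 calls. None of the genes named from these 4 lists passed without the couple term.

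**Figure D5:**
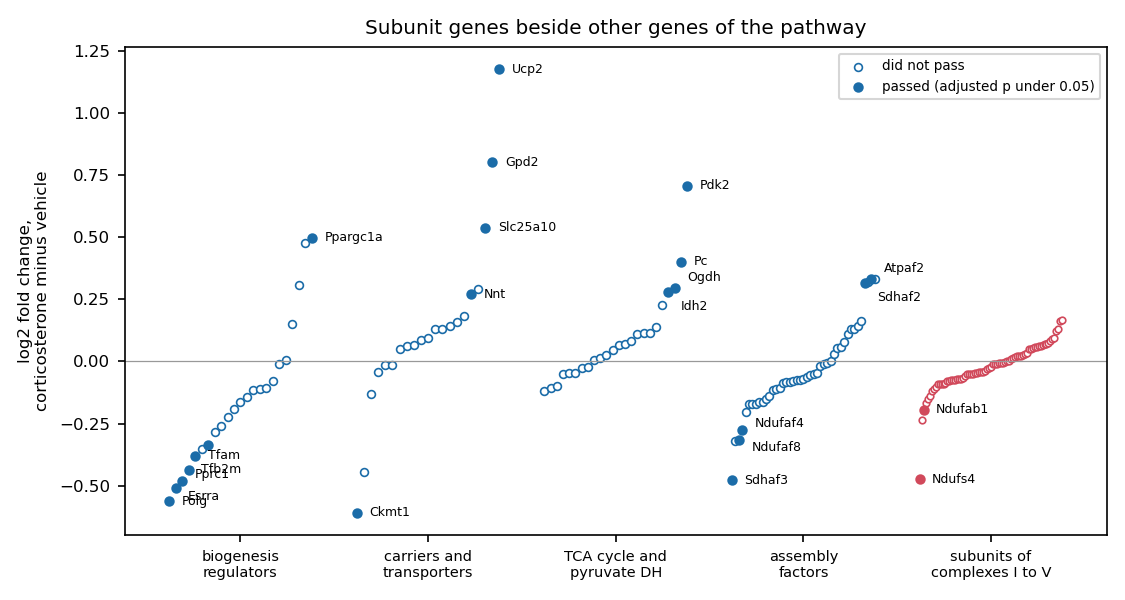
Log2 difference, corticosterone minus vehicle, of each tested gene, ranked within 4 lists of related genes and within the subunits of complexes I to V. Filled circles passed at an adjusted p under 0.05; the subunits span −0.47 to 0.17, and the largest differences in the lists are those of Ucp2 (1.18), Gpd2 (0.80), Pdk2 (0.71) and Ckmt1 (−0.61).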

How the data were processed

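RNA of 6 samples was labelled as biotin-cRNA from 3 µg total RNA and hybridised to 1 array each, per the labels' protocols. The authors deposited 1 linear signal intensity for each probe set and array, made with MAS5 per the submitters' processing notes, which give no version. With 2% trimmed at either end, every array had a mean of 500.2. After 57 control probe sets were removed from 31099, signals were taken as log2(signal + 28.6), the 25th percentile, and the 40% dimmest (mean signal up to 63.6) were left out. The background signal, 22.8, was read from 27 bacterial controls at their 95th percentile.

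limma 3.58.1 in R 4.3.3 (lmFit, eBayes with trend) was fitted with treatment and couple on 18625 probe sets, two-sided, Benjamini-Hochberg adjusted. It was tested on simulated data. The brightest probe set stood for a gene. The series design text names couples, and deviations from group means correlated by 0.57, 0.52 and 0.35 within them, against −0.48 to 0.003 between. Such deviations sum to 0 over the 3 arrays of a group, so positive values within couples bring lower ones between, and the contrast is partly built in. Nothing states separate animals or cultures, so p-values measure only the spread among these samples, and 3 arrays a group limit the precision. Genes were named as every member that passed, the extremes of each complex, core subunits, tissue forms and the largest changes of 4 related lists. Members and lists were chosen with earlier results of these data known, and the 1.25-fold bound, the signals of 1000 and 5000, the groups within complexes I and V and the motifs after seeing them. Alternatives covered the couple term, pseudocount, filter, scaling, trend, probe set choice and each couple left out. Names follow the platform annotation; all 91 Entrez identifiers were in the NCBI gene table.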

Additional observations from a re-analysis of the deposited data

How the results depend on the processing

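With no replicate block, 417 probe sets passed in place of 2953, and 0 genes of the prefix rule in place of 6 (3 at an unadjusted p under 0.05 in limma), among them 0 subunits (1 at an unadjusted p). Likewise 0 carriers and transporters passed (5 unadjusted), 0 assembly factors (4), 0 biogenesis regulators (11) and 0 TCA cycle genes (4). Of all genes 3% passed in that setting, and their unadjusted share was not counted there. Without the filter on low signals, 1862 probe sets, 3 genes of the rule, 0 subunits (7 at an unadjusted p in limma), 3 assembly factors and 4 regulators passed, beside 8.71% of all genes. The complex IV median was then 0.022, with its 4 dim genes included. Without the intensity trend there were 1262 probe sets, 1 gene of the rule, 0 subunits (0 at an unadjusted p in limma), 3 carriers, 1 assembly factor, 3 regulators and 1 TCA cycle gene, beside 8.06% of all genes. Leaving out 1 couple at a time gave 1192 to 2807 probe sets, 1 to 3 genes of the rule, 0 to 1 subunits, 1 to 3 assembly factors, 2 to 6 regulators and 2 to 4 TCA cycle genes, beside 8.16% to 18.5% of all genes. With the mean of a gene's probe sets 1 subunit passed, beside 18.2% of all genes.

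Centring each array on its median moved all probe sets by about −0.11, and 16 genes of the rule passed, all lower, 13 of them subunits. With them passed 12 regulators and 2 TCA cycle genes, beside 26.6% of all genes. The medians were then −0.13 for all subunits and complexes I and III (−0.128, −0.133 and −0.130), −0.038 for complex II, −0.14 for complex IV and −0.15 for complex V. After quantile normalization the complex IV median was −0.0013. Centring ended the call, by limma adjusted p, of Sdhaf2 (0.12), Atpaf2 (0.14), Nnt (0.15), Ogdh (0.11), Pc (0.10), Idh2 (0.064) and Ppargc1a (0.061), and keeping low signals that of Ndufab1 (0.096), Ndufs4 (0.14) and Sdhaf2 (0.074), among others. The causes were not tested. For the 54 named genes tested, 576 of 667 settings kept direction and side of the threshold, 87 lost the call, 4 gained it and 0 reversed. Sign changes within 1 SE of 0, 30 in number, were counted as kept. Many of these genes did not pass in the main fit and so had no call to lose. The 87 losses fall only on the genes that did pass, and the 576 do not measure how stable the calls are.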
